A study of Mus musculus with 2 samples.

Results

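Imprinted genes are read mainly from the maternal or the paternal copy, and 32 of them, named in a list of symbols, were followed in the cortex of the adult mouse. A row was found for 31 of the 32 among 43346 gene rows; Peg13, a non-coding RNA inside Trappc9, had none and was not analysed here. The members were chosen by name, with earlier results of these data known. Of the 31, 29 had at least 10 counts over both libraries and were compared between them, while Snurf and Phlda2 did not reach that minimum.

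Polyadenylated RNA longer than 200 nt was sequenced from the cortical plate of C57BL/6J mice at 8 weeks of age, as strand-specific paired reads with spike-in RNAs added. Tissue of male and female littermates was pooled. The 2 libraries, biological replicates 1 and 2, form the only group, so the sole contrast is replicate 1 over replicate 2, which compares 2 libraries and no conditions. C57BL/6J is inbred, so reads of the 2 parental alleles carry the same sequence: these data give the level of each RNA and not the allele it came from, and the alleles named below are background.

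At an imprinted locus, DNA methylation laid down in one parental germ line is kept on that copy in the offspring, and genes nearby are then read from 1 copy. Imprinted genes lie in clusters that mix protein-coding genes with long non-coding RNAs, often read from opposite copies. Many act on growth before birth and on placenta, and brain is the tissue where several, such as Ube3a, Grb10 and Gnas, are known to be imprinted in some cells or from some promoters only.

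Gene rows held 88327121 expected counts in replicate 1 and 88643335 in replicate 2, and spike-in rows held 3.86% and 4.62% of all counts. TPM of the median gene was higher in replicate 1, with a log2 ratio of TPM of 0.16 over all genes tested and also 0.16 over the members, so differences between libraries below use counts scaled by TMM and not TPM. The libraries differed in dissection markers: all 9 striatal markers were lower in replicate 1 (summed TPM of 136 in replicate 1 and 404 in replicate 2) and all 6 hippocampal markers were higher (20.5 TPM in replicate 1 and 6.94 in replicate 2). Markers of the labelled tissue were present, with Slc17a7, a transporter of excitatory neurons, at 572 TPM in replicate 1 and 479 TPM in replicate 2. Of the hypothalamic markers Sim1 had 0 counts in both libraries, and Nkx2-1 had 3 counts in replicate 1 against 46 in replicate 2, called lower by the binomial and the edgeR test. That list summed to 1.64 TPM in replicate 1 and 1.4 TPM in replicate 2. In bulk tissue, fewer cells of a type and less RNA per cell cannot be told apart.

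The members spanned more than 4 orders of magnitude in level. At least 1 TPM in both libraries was reached by 23 of the 31, against 32.6% of all gene rows and 59.95% of protein-coding rows; 16 reached 10 TPM, 6 reached 100 TPM and 3, Meg3, Rian and Gnas, reached 1000 TPM. The median member had 16.7 TPM in replicate 1 and 13.4 TPM in replicate 2, against 3.07 TPM and 2.75 TPM for all genes with a count. Together the members held 1.03% of all counts on genes in replicate 1, and 0.959% in replicate 2. Meg3 alone gave 498912 of these 909519 counts in replicate 1 and 455841 of 849938 in replicate 2. Neighbours in this order whose libraries overlap, so that their order is not fixed, were Rian and Gnas, Nnat and Mirg, Impact and Peg3, Inpp5f and Copg2, Sgce and Grb10, Usp29 and Zdbf2, and Zim1 and H19.

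**Figure D1:**
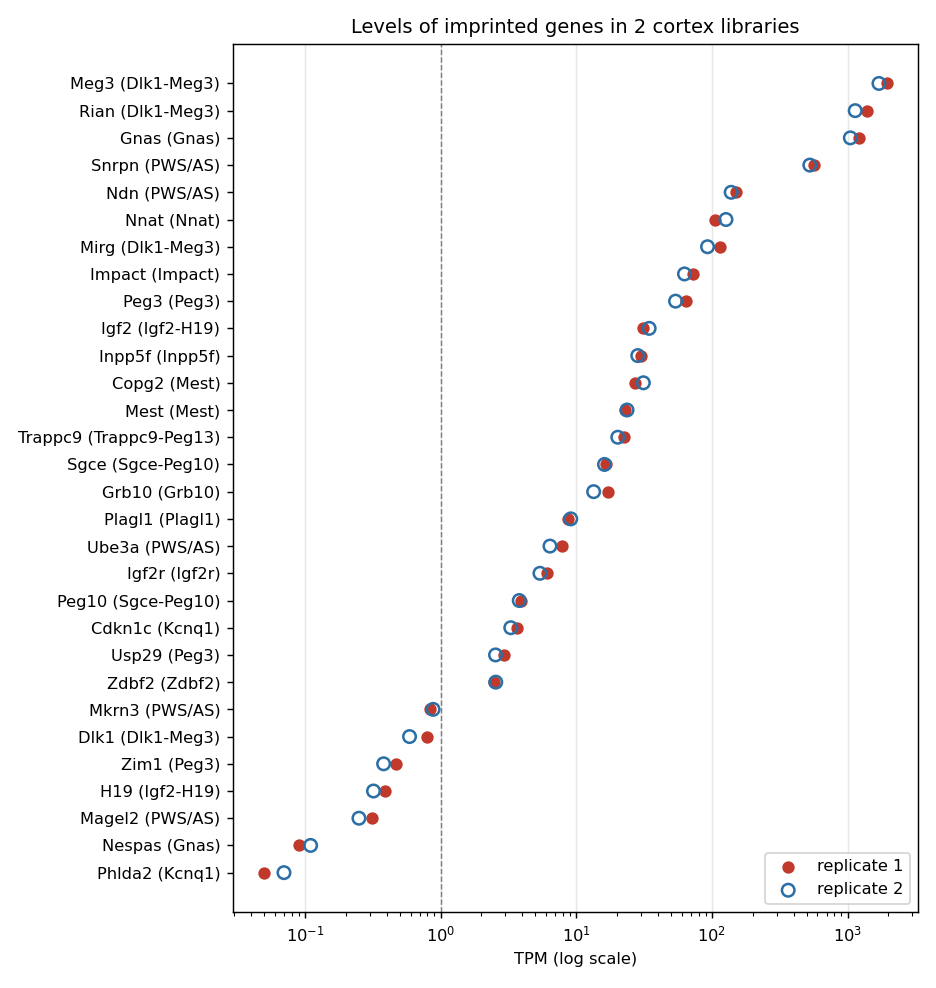
TPM on a log scale of the 30 imprinted genes with a count, in replicate 1 (filled) and replicate 2 (open), ordered by mean level with the cluster in brackets (PWS/AS is the Prader-Willi and Angelman cluster) and a dashed line at 1 TPM. Meg3 stands at the top with 1964 TPM in replicate 1 and 1705 TPM in replicate 2, and Phlda2 at the bottom with 0.05 TPM in replicate 1 and 0.07 TPM in replicate 2.

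The cluster between Dlk1 and Dio3 on chromosome 12 gave the most abundant members. Its maternal copy is read as a chain of non-coding RNAs: Meg3, a long non-coding RNA, then Rian, which carries small nucleolar RNAs, then Mirg, which carries microRNAs. Meg3 (chr12:109541001-109571726, plus strand, mm10) had 1964 TPM in replicate 1 and 1705 TPM in replicate 2, and averaged 1834 ± 184 TPM (SD, n = 2). Rian had 1385 TPM in replicate 1 and 1139 TPM in replicate 2. Among 5696 non-coding rows, Meg3 ranked 2 and Rian ranked 3 by mean TPM. Mirg, farther along, stood at 114 TPM in replicate 1 and 92.9 TPM in replicate 2 and ranked 14. Levels thus went down along the chain: the mean log2 TPM ratio was -0.54 ± 0.05 for Rian over Meg3 and -4.15 ± 0.06 for Mirg over Meg3 (SD, n = 2), each larger than its spread.

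Dlk1, the paternally read gene of that cluster, encodes a membrane protein with EGF repeats that is known from embryonic growth and fat cell precursors. It had 0.80 TPM in replicate 1 and 0.59 TPM in replicate 2, from 82 and 97 counts. The log2 TPM ratio of Meg3 over Dlk1 was 11.38 ± 0.17 (SD, n = 2), and Dlk1 was lower than all 3 non-coding RNAs in both libraries.

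Small RNAs under 200 nt were not sampled, so the levels above are those of long host transcripts. The span from the start of Meg3 to the end of Mirg (chr12:109541001-109749460, GRCm38) holds 54 microRNA hairpins on the plus strand in the RefSeq table, with 106 mature entries. Of these hairpins 1 lies in Meg3, 3 in Rian and 14 in Mirg. The 105 distinct mature sequences have 97 distinct seeds (bases 2 to 8), and 8 seeds are shared by a pair. Mature sequences of 4 such pairs in this span are shown, with the seed in capitals. Both members of the pair of miR-453 and miR-496a-5p lie within Mirg, as does miR-410-5p. The others shown lie outside the annotated Meg3, Rian and Mirg.
mmu-miR-379-3p: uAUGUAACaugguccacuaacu
mmu-miR-411-3p: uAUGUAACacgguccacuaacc
mmu-miR-376c-5p: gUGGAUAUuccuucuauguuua
mmu-miR-376b-5p: gUGGAUAUuccuucuaugguua
mmu-miR-494-5p: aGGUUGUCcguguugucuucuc
mmu-miR-410-5p: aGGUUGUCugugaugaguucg
mmu-miR-453: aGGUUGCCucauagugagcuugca
mmu-miR-496a-5p: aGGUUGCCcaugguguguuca

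The Prader-Willi and Angelman cluster on chromosome 7 held both very high and very low members. Snrpn, which encodes the SmN protein of the spliceosome and is read from the paternal copy, had 564 TPM in replicate 1 and 527 TPM in replicate 2 and ranked 121 among all gene rows. Ndn, which encodes the MAGE-family protein necdin of neurons, followed at 152 TPM in replicate 1 and 139 TPM in replicate 2. Its neighbours were far lower. Magel2, another MAGE-family gene, had 0.31 TPM in replicate 1 and 0.25 TPM in replicate 2. Mkrn3, a RING-finger gene known in humans from the timing of puberty, had 0.84 TPM in replicate 1 and 0.88 TPM in replicate 2. The log2 TPM ratio was 9.03 ± 0.13 for Ndn over Magel2 and 7.40 ± 0.14 for Ndn over Mkrn3 (SD, n = 2).

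Snurf, a short reading frame carried upstream of SmN on the same RNA, had 0 counts in both libraries, which allows up to 3 counts in each. That value does not describe the RNA. The annotated Snurf transcript of 216 nt (chr7:59995449-60005049, minus strand, GRCm38) is found letter for letter at bases 63 to 278 of the main Snrpn transcript, Snrpn-201, of 1932 nt. All 116 of its windows as long as a read occur in transcripts of Snrpn and of Gm38393, a gene model that spans both, so reads from it fit those transcripts as well. The sequence is shown because the missing gene can be read inside the abundant one, with its start and stop codons in capitals.
Snurf-201: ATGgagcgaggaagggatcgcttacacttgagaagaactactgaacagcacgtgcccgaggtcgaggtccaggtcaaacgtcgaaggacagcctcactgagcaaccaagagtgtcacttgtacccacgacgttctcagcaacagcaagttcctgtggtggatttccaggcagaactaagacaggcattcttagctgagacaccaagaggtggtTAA

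Gm38393 itself had 7.58 TPM in replicate 1 and 7.35 TPM in replicate 2, so the split of reads between it and Snrpn is uncertain. In the older gene table on mm9 the gene row that holds Snrpn-201 had 55.9 RPKM and 54.0 RPKM in its 2 columns, whose replicates are not stated. Snrpn-201 held 99.8% of Snrpn TPM in both libraries. RefSeq gives Snrpn and Snurf one shared start, and its promoter window (chr7:60005150-60005449, minus strand, GRCm38.p6, 250 bases before to 50 after the start) is printed because nearly all of the RNA leads back to it. Capitals mark TGCCGC, the hexamer bound by ZFP57 when methylated, on either strand.
Snrpn and Snurf promoter: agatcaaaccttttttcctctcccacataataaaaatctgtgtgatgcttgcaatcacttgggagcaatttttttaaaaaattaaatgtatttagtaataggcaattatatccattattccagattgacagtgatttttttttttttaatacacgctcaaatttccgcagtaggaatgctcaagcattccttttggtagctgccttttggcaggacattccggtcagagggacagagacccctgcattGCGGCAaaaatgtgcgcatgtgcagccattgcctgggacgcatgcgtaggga

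That window held 1 hexamer and 7 CpG. Over the members, 11 of 37 distinct promoter windows of 24 genes, with Snrpn and Snurf sharing 1, held TGCCGC on either strand, or 29.7%, beside 11.6% of all 32817 windows of the same length; the members' windows also had more CpG (median of 15 in the members' windows and 7 over all windows). A match of letters is not a binding site, and the windows of one gene can overlap.

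Ube3a, an E3 ubiquitin ligase that neurons read from the maternal copy, had 7.88 TPM in replicate 1 and 6.4 TPM in replicate 2, and the mean log2 TPM ratio of Ube3a over Snrpn was -6.26 ± 0.14 (SD, n = 2). In mouse neurons the paternal copy is known to be covered by an antisense RNA that continues from Snrpn and Snhg14. Snhg14 had 229 TPM in replicate 1 and 206 TPM in replicate 2. In the authors' contig table on mm9, antisense contigs covered 93.2% of the Ube3a span at a mean level of 1.58, and contigs in the sense of Ube3a covered 76.4% at a mean level of 0.641. The unit of that level is not stated, and 1 value serves both libraries.

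In the Peg3 cluster on chromosome 7, Peg3, a paternally read zinc-finger gene, had 64.9 TPM in replicate 1 and 54.0 TPM in replicate 2. Usp29, a paternally read deubiquitinase gene that starts beside Peg3 on the other strand, had 2.91 TPM in replicate 1 and 2.54 TPM in replicate 2. Zim1, a maternally read zinc-finger gene, had 0.47 TPM in replicate 1 and 0.38 TPM in replicate 2. Peg3 was thus the major RNA, with a log2 TPM ratio of 4.44 ± 0.05 over Usp29 and 7.13 ± 0.03 over Zim1 (SD, n = 2).

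Genes of the growth axis differed widely in level. Igf2, a paternally read growth factor, had 31.1 TPM in replicate 1 and 34.5 TPM in replicate 2. H19, the maternally read non-coding RNA next to it, had 0.39 TPM in replicate 1 and 0.32 TPM in replicate 2, from 50 and 47 counts, and the log2 TPM ratio of Igf2 over H19 was 6.53 ± 0.31 (SD, n = 2), but 5.80 on the tables' posterior mean TPM and 5.27 on mm9 RPKM. Igf2r, the receptor that carries IGF2 to lysosomes, had 6.06 TPM in replicate 1 and 5.40 TPM in replicate 2. Igf2r stood 2.52 ± 0.22 below Igf2 on the log2 TPM scale, while on counts, without division by length, the log2 ratio of Igf2r over Igf2 was -0.31. Cdkn1c, an inhibitor of cyclin-dependent kinases, had 3.67 TPM in replicate 1 and 3.29 TPM in replicate 2. Its neighbour Phlda2, a brake on placental growth, had 2 counts in replicate 1 and 3 in replicate 2, so its level could not be told from 0 at this depth.

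Grb10, an adaptor that damps insulin and IGF1 receptor signalling, had 17.0 TPM in replicate 1 and 13.4 TPM in replicate 2. In mouse neurons it is known to be read from the paternal copy, and in most other tissues from the maternal copy. Plagl1, a paternally read zinc-finger regulator, had 8.74 TPM in replicate 1 and 9.11 TPM in replicate 2. Both lay above Igf2r in each library.

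On chromosome 2, Gnas, the gene of the stimulatory G protein subunit Gs-alpha, was among the most abundant messengers, at 1207 TPM in replicate 1 and 1049 TPM in replicate 2. Nespas, the paternally read antisense RNA of that cluster, had 7 counts in replicate 1 and 12 in replicate 2. Gnas lay 13.47 ± 0.35 above Nespas on the log2 TPM scale (SD, n = 2). Gnas is known for several starts with different imprinting: Gs-alpha is read from both copies in most tissues, while starts upstream are read from 1 copy. In the transcript tables, transcripts that start at the Gs-alpha exon held 95.7% of Gnas TPM in replicate 1 and 95.8% in replicate 2. The start just upstream, known as exon 1A and read from the paternal copy, held 3.60% in replicate 1 and 3.50% in replicate 2, and the maternally read NESP start held 0.08% and 0.04%.

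Junction reads on mm9 gave the same order. Into the second coding exon of Gnas, 10521 of 10831 reads in one column and 9122 of 9427 in the other came from the Gs-alpha exon, or 97.1% and 96.8%. The donor of the upstream group gave 2.48% and 2.77%. Only 10 and 4 reads came from the NESP donor. The promoter windows of these neighbouring starts are shown because the reads divide so unequally between them: the Gs-alpha window (chr2:174329756-174330055, plus strand, GRCm38.p6) has 40 CpG and the upstream one (chr2:174327499-174327798) has 27, and neither holds TGCCGC.
Gnas, Gs-alpha start: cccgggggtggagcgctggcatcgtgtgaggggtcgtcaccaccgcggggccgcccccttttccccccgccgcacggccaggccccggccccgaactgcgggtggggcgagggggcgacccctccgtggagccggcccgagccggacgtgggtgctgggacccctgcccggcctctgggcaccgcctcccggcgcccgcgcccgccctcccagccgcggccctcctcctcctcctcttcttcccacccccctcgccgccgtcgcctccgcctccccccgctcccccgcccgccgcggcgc
Gnas, upstream start: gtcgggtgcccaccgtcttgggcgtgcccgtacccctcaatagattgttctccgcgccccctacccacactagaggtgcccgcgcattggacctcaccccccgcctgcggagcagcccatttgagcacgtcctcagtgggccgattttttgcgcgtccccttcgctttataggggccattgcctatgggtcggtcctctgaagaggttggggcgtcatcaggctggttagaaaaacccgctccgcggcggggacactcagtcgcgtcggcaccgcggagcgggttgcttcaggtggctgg

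Among the remaining members, Nnat, a paternally read proteolipid of the endoplasmic reticulum in neurons, had 106 TPM in replicate 1 and 127 TPM in replicate 2; it lies in an intron of Blcap, whose strand carried a contig over 100% of the Nnat span. Impact, a paternally read regulator of translation in neurons, had 72.5 TPM in replicate 1 and 62.8 TPM in replicate 2. Mest, a paternally read hydrolase-family gene, had 22.9 TPM in replicate 1 and 23.7 TPM in replicate 2. These were middle to high levels. Copg2, a coat protein gene that overlaps the end of Mest on the other strand, had 27.01 TPM in replicate 1 and 31.2 TPM in replicate 2, and the log2 TPM ratio of Copg2 over Mest was 0.32 ± 0.12 (SD, n = 2). The counts of Copg2 were 4818 in replicate 1 and 4777 in replicate 2 (ratio 0.989, not called), while a transcript of 215 nt took 2.80% of its TPM in replicate 1 and 24.4% in replicate 2.

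Sgce, the epsilon-sarcoglycan gene whose loss causes myoclonus dystonia in humans, had 16.7 TPM in replicate 1 and 16.2 TPM in replicate 2. Peg10, a retrotransposon-derived gene that starts beside it, had 3.89 TPM in replicate 1 and 3.8 TPM in replicate 2, and its log2 TPM ratio over Sgce was -2.10 ± 0.01 (SD, n = 2) but -0.24 on counts. Zdbf2, a zinc-finger gene, had 2.47 TPM in replicate 1 and 2.55 TPM in replicate 2. Inpp5f, an inositol phosphatase gene, had 29.9 TPM in replicate 1 and 28.4 TPM in replicate 2. Trappc9, a subunit of a vesicle tethering complex that is maternally biased in mouse brain, had 22.4 TPM in replicate 1 and 20.2 TPM in replicate 2. All 5 therefore lay within the middle of the members' range.

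Over the 14 gene pairs given, 13 within a cluster and Igf2r with Igf2, every log2 TPM ratio was larger in size than its SD between libraries. The ratios of Snurf over Snrpn and Trappc9 over Peg13 could not be given. In the mm9 gene table, 27 members had a row under their own identifier, and their median rank among 33068 shared genes was 75.8% by RPKM and 74.3% by TPM.

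At an adjusted p under 0.05 (exact two-sided binomial test on counts, Benjamini-Hochberg over 19829 genes), 8 of the 29 members tested were higher in replicate 1 and 6 were lower, where 14.0% of all genes were higher and 14.8% lower (28.7% in either direction). The only called member past 1.2-fold was Nnat, where 9.32% of all genes were called and past 1.2-fold. Deep genes are called more often: of the 21 members with at least 2000 counts 66.7% were called, beside 41.1% of all such genes. The members' median log2 ratio was -0.02, against -0.003 for all genes, and 26 of the 29 lay within 1.2-fold, beside 74.6% of all genes and 96.0% of genes with at least 2000 counts. Outside were Nnat, Dlk1 and Nespas, and of these only Nnat had at least 2000 counts. The test covers counting error only. When the variation of all genes between the libraries was allowed for (edgeR exact test with a common biological coefficient of variation of 0.0906), 0 members were called, with an unadjusted p under 0.05 for 1 member, where 1.31% of all genes were called (0.403% higher and 0.908% lower). With plain totals 8 members were higher and 4 lower, beside 20.8% and 10.3% of all genes (31.2% in all). With DESeq2 size factors 13 were called, beside 28.7% of all genes (15.1% higher and 13.6% lower). With spike-in totals 21 were higher and 1 lower, beside 66.6% and 2.36% of all genes (69.0% in all), and with Bonferroni adjustment 8 were called, beside 10.2% of all genes.

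**Figure D2:**
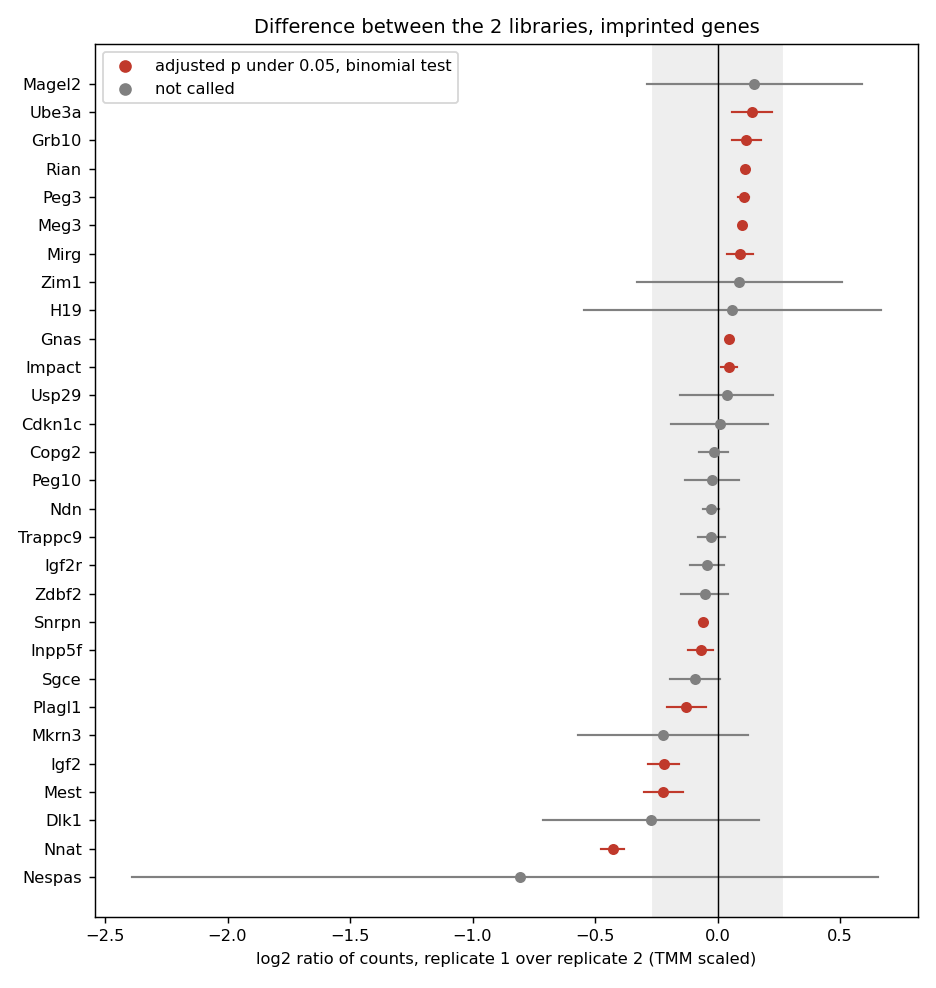
Log2 ratio of TMM-scaled counts, replicate 1 over replicate 2, of the 29 imprinted genes tested, with 95% Clopper-Pearson intervals; red marks an adjusted p under 0.05 in the exact binomial test and the grey band spans 1.2-fold. Nnat, at a ratio of 0.743, is the only called member outside the band, and the wide intervals belong to members with few counts, such as Nespas.

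Meg3, Rian and Mirg were all called higher in replicate 1, by 1.07-fold (95% interval 1.07 to 1.08), 1.08-fold (1.07 to 1.09) and 1.07-fold (1.03 to 1.11). Differences between these 3 ratios were not tested. Ube3a was 1.10-fold higher (1.04 to 1.17), Grb10 1.08-fold (1.04 to 1.13), Peg3 1.08-fold (1.06 to 1.09), Gnas 1.03-fold (1.03 to 1.04) and Impact 1.03-fold (1.01 to 1.06). Slc17a7, the marker of excitatory neurons, was 1.07-fold higher in replicate 1. Of the 7 projection neuron markers 3 were higher and 1 was lower, while of the 6 interneuron markers 0 were higher and 4 lower. Over all genes 14.0% were higher and 14.8% lower, and the edgeR test called none of these markers. The part of neuron content in these ratios was not tested.

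On the lower side, Nnat had the largest called difference: 6949 counts in replicate 1 against 9170 in replicate 2 gave a ratio of 0.743 (95% interval 0.720 to 0.767; exact binomial test, adjusted p = 2.83e-76; edgeR adjusted p = 0.508). Igf2, with 3814 counts in replicate 1 against 4357 in replicate 2, stood at 0.858 (0.822 to 0.897). Mest, with 2354 counts in replicate 1 against 2691 in replicate 2, also stood at 0.858 (0.811 to 0.907). Plagl1 followed at 0.915 (0.867 to 0.967), Snrpn at 0.960 (0.95 to 0.971) and Inpp5f at 0.953 (0.920 to 0.988). With spike-in totals, which moved the median log2 ratio of all genes to 0.30, the ratios of Igf2, Mest, Plagl1, Snrpn and Inpp5f turned positive but stayed below that shift, and Nnat stayed lower in replicate 1.

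Several marker lists moved the same way as Nnat and Igf2 in the binomial test, where 14.0% of all genes were higher and 14.8% lower. Among genes with at least 2000 counts 41.1% were called. The edgeR test called no marker of oligodendrocytes, meningeal fibroblasts, interneurons, astrocytes or endothelium. It called 2 choroid plexus markers lower, all 9 striatal markers lower and 4 of the 6 hippocampal markers higher. All 5 oligodendrocyte markers were lower in replicate 1, at a median log2 ratio of -0.43, with summed TPM of 3274 in replicate 1 and 4009 in replicate 2. Of 7 meningeal fibroblast markers 4 were lower and 0 higher, at a median of -0.21, with levels from 1.91 to 6.10 TPM in replicate 1 and from 2.08 to 5.84 TPM in replicate 2. Choroid plexus markers were lower for 6 of 7 and summed to 17.7 TPM in replicate 1 and 23.7 TPM in replicate 2; Ttr made up most of that sum, at 14.8 TPM in replicate 1 and 19.4 TPM in replicate 2. Of 6 interneuron markers 4 were lower and 0 higher, at a median of -0.063. Of 4 astrocyte markers 3 were lower and 0 higher, at a median of -0.057. The 9 striatal markers had a median of -2.13 and the 6 hippocampal ones 1.93. Of 4 endothelial markers 1 was lower and 0 higher, at a median of 0.004. The part of these lists in the ratios of Nnat, Igf2, Mest and Plagl1 was not tested.

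**Figure D3:**
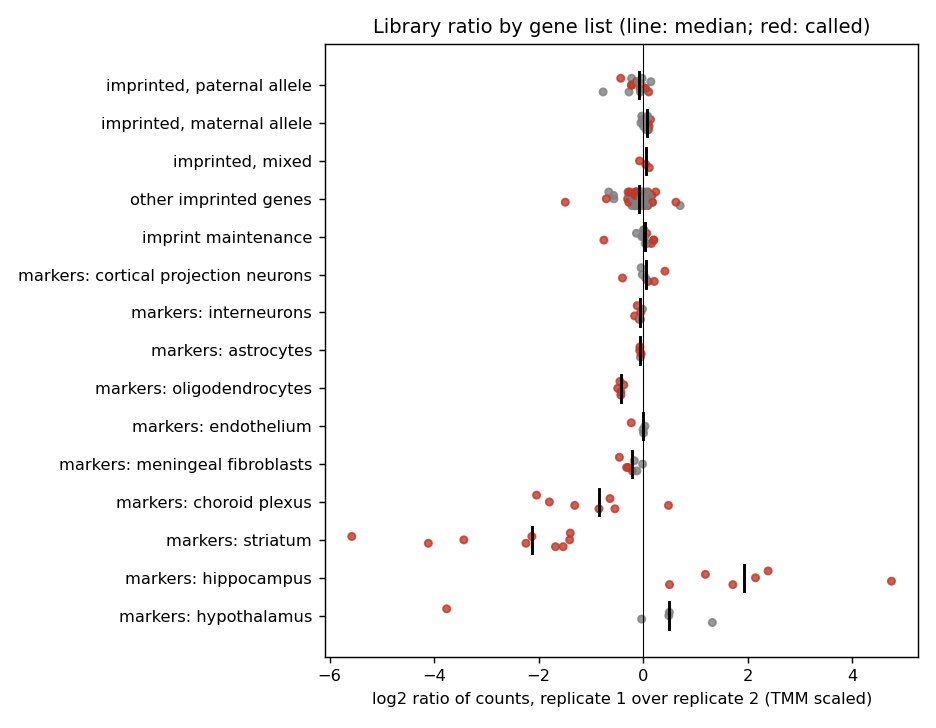
Log2 ratio of TMM-scaled counts, replicate 1 over replicate 2, of each tested gene, by list, with a line at the list's median and red for genes called in the exact binomial test. The imprinted lists sit near 0, with medians of -0.08, 0.07 and 0.05 for paternally read, maternally read and mixed members, while striatal markers have a median of -2.13 and hippocampal markers 1.93.

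Members were grouped by the allele listed for them, which was not measured here and may not hold in every cell of this tissue. Of the 10 maternally read members tested, 4 were higher in replicate 1 and 0 were lower. Of the 16 paternally read members 2 were higher and 5 were lower. Over all genes 14.0% were higher and 14.8% lower, and 41.1% of genes with at least 2000 counts were called in either direction; a difference between the classes was not tested. The 3 members of mixed imprinting, Gnas, Grb10 and Inpp5f, were all called, 2 higher and 1 lower. The maternally read calls were Meg3, Rian, Mirg and Ube3a, of which the first 3 share a cluster, and the edgeR test called none of them.

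Of 16 members with a mean of at least 10 TPM, 14 have several transcripts in the tables, and for 8 of them the most used transcript took less than 60% of the gene's TPM. The leading transcript was the same in both libraries in all 16. The leading transcript of Meg3 held 25.1% in replicate 1 and 26.1% in replicate 2, and 3 more held 20.4%, 20.04% and 14.5% in replicate 1 and 20.8%, 18.9% and 14.7% in replicate 2. Rian-213 held 30.9% in replicate 1 and 30.8% in replicate 2. In Sgce 3 transcripts were nearly level: Sgce-205 held 31.8% in replicate 1 and 24.8% in replicate 2, Sgce-206 26.3% and 24.6%, and Sgce-202 20.9% and 24.8%, so their order is not fixed beyond the spread.

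**Figure D4:**
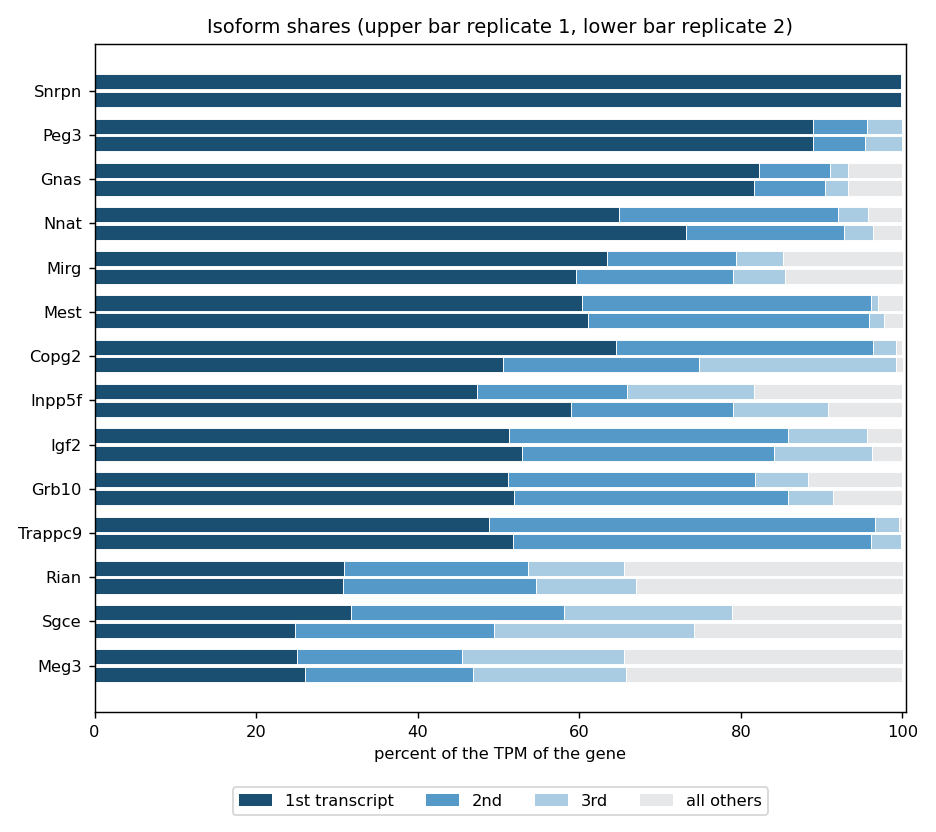
Share of each gene's TPM held by its 3 leading transcripts by mean share and by all others, for the 14 imprinted genes with a mean of at least 10 TPM and several transcripts, with replicate 1 in the upper bar and replicate 2 in the lower bar. Snrpn is almost wholly 1 transcript (99.8%), and the leading transcript of Meg3 holds 25.1% in replicate 1 and 26.1% in replicate 2.

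At the other end, Gnas-208 held 82.3% in replicate 1 and 81.6% in replicate 2, and the leading Peg3 transcript 88.9% and 89.0%. Nnat-202 held 64.97% in replicate 1 and 73.2% in replicate 2, Mirg-207 63.5% and 59.7%, and Mest-211 60.4% and 61.1%. The leading Zdbf2 transcript held 76.9% in replicate 1 and 72.6% in replicate 2. Ube3a, Ndn and Impact have 1 transcript each in the tables, so no share could be given for them.

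In Grb10 the leading transcript, of 4755 nt, held 51.2% in replicate 1 and 51.95% in replicate 2, and one of 5061 nt with a start farther upstream held 30.6% and 33.9%. Mouse neurons are known to use downstream starts for the paternal Grb10 RNA. For Igf2 a processed transcript of 958 nt held 51.3% in replicate 1 and 52.9% in replicate 2, and the main coding transcript, of 3708 nt, held 34.5% and 31.2%. Of the windows of Igf2 transcripts as long as a read, 59.3% also occur in Gm49394, a gene model with no row in the tables. The main coding transcript of Copg2 held 64.5% in replicate 1 and 50.5% in replicate 2. Trappc9 was a near tie of 2 transcripts, at 48.9% in replicate 1 and 51.8% in replicate 2 for one and 47.7% and 44.3% for the other.

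For Inpp5f, mouse brain is known to make a short, paternally read Inpp5f RNA from a promoter inside the gene, while the full-length RNA is read from both copies. In the transcript tables, transcripts starting within the last group of starts (chr7:128687546-128688489, mm10) held 63.0% of Inpp5f TPM in replicate 1 and 70.7% in replicate 2. Those starting at the first exon held 19.7% and 21.02%. Inpp5f-208 alone, from the internal group, held 47.3% in replicate 1 and 58.9% in replicate 2.

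Junction reads, which do not rest on the transcript model, were read for the first exon of Inpp5f-203 alone. Inpp5f-208, which held most of the internal group's TPM, was not counted separately, so the shares below cannot be set against that group's. One exon start of Inpp5f was reached from 2 annotated donors: 53.6% of 207 reads in one mm9 column (95% Wilson interval 46.8 to 60.3%) and 51.0% of 194 in the other (44.0 to 58.0%) came from the upstream exon, and 44.0% (37.4 to 50.8%) and 42.8% (36.0 to 49.8%) came from the first exon of Inpp5f-203. From that exon start on, junctions had a median of 264 and 263 reads over 5 exon starts, against 68.5 and 64.5 over the 14 before it. The lowest of the 5 had 207 and 194 reads, above every one of the 14, whose highest value in either column was 143. The part of uneven read coverage along the RNA in that step was not tested. Both joins are shown, the donor exon in lower case and the shared exon in capitals (donor exons chr7:128685086-128685284 and chr7:128688489-128689246, plus strand, GRCm38).
Inpp5f-201, exons 15 and 16: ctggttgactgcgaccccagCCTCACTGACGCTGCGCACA
Inpp5f-203, exons 1 and 2: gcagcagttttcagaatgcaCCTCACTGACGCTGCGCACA

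**Figure D5:**
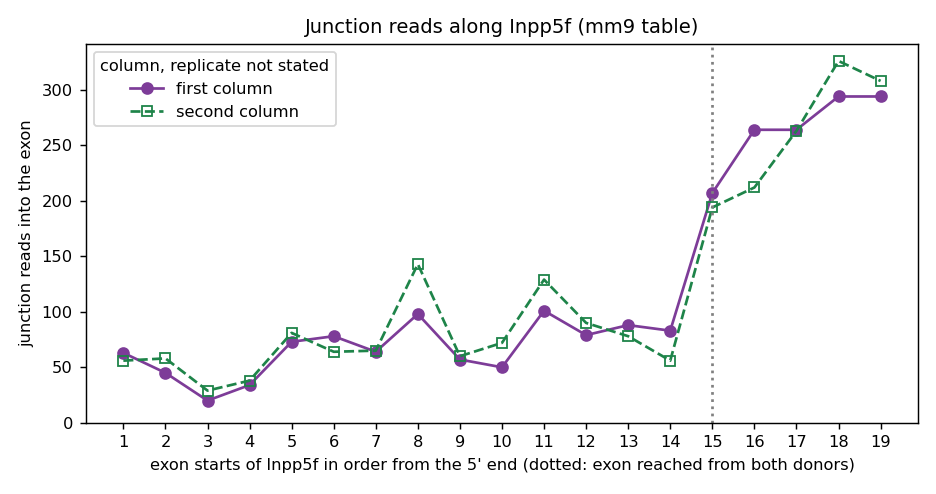
Junction reads into each of 19 annotated exon starts of Inpp5f in order from the 5′ end, in the first and the second column of the mm9 junction table, whose replicates are not stated; the dotted line marks the exon reached from both donors. Reads stay at or below 143 before that exon and at or above 194 from it on, in both columns.

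Across the members, 225 exon starts in 18 genes had at least 20 junction reads in each mm9 column, and 19 of them, in 10 genes, had a further donor with at least 10% of the reads in both. Sgce held a short optional exon of 27 nt (chr6:4690469-4690495, minus strand, GRCm38), wholly coding and a multiple of 3. At the exon start after it, 42.6% of 195 reads in one column (35.8 to 49.6%) and 42.1% of 233 in the other (35.9 to 48.5%) came from the short exon, and 57.4% and 57.9% skipped it. Trappc9 held another of 27 nt (chr15:73042177-73042203, minus strand), joined by 150 of 168 reads in one column (89.3%, interval 83.7 to 93.1%) and 104 of 130 in the other (interval 72.3 to 86.0%). The transcript tables gave less, since the main Trappc9 transcript with that exon held 47.7% in replicate 1 and 44.3% in replicate 2.

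Both short exons are shown in capitals between 15 bases of their neighbours, with the join that skips the Sgce exon.
Sgce-204, with the exon: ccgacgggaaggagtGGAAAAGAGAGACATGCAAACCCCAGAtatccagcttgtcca
Sgce-201, without it: ccgacgggaaggagttatccagcttgtcca
Trappc9, with the exon: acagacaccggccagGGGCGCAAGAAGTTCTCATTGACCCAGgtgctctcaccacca

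Gnas and Nnat, looked at after their values were seen, held longer optional exons. The 45-nt exon of Gnas, exon 3, separates the long and the short form of Gs-alpha. Of reads joining the next exon from it or from exon 2, 4.67% (4.20 to 5.20%) in one column and 5.62% (5.06 to 6.24%) in the other skipped it. Exon 2 joined exon 3 in 12369 and 10379 reads, and exon 3 joined the next exon in 6424 and 5539. The share that skips thus depends on which of these junctions is counted. From exon 3, 1600 reads in one column and 1669 in the other went to a nearby last exon and not on to the next coding exon, or 19.9% and 23.2%. The 81-nt middle exon of Nnat, which distinguishes its alpha form from the beta form, preceded 82.3% of 982 reads and 87.2% of 1662 reads into the last exon, and 11.4% and 6.68% skipped it. These exons are printed in capitals (chr2:174336747-174336791 and chr2:157561213-157561293, plus strand, GRCm38).
Gnas-201, exon 3: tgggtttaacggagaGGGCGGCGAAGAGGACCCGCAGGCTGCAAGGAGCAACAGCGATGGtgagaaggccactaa
Nnat-202, exon 2: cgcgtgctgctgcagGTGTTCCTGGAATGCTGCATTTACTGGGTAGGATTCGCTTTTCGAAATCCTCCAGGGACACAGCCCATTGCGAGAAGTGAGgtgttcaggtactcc

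The other exon starts with competing donors were in Meg3, Grb10, Peg3, Snrpn, Trappc9, Ube3a, Cdkn1c and Peg10. In Meg3 the best covered of them had 23149 reads in one column and 22788 in the other, of which 78.3% and 78.5% came from one donor and 21.7% and 21.5% from the other, so the columns hardly differed. A further exon start of Meg3 drew 41.6% and 42.1% of its reads from a donor that the table does not flag as annotated, and unflagged junctions held 7.85% and 8.05% of all junction reads within Meg3. In Grb10, 3 annotated first exons joined one exon start, with 9, 7 and 4 of 24 reads in one column and 11, 7 and 5 of 35 in the other, too few to order them. In Ube3a, with 93 and 110 reads at one exon start, 57.0% (46.8 to 66.6%) and 71.8% (62.8 to 79.4%) came directly from the first exon, and 41.9% and 27.3% came through an exon of 120 nt. Peg3 drew 29.9% and 24.3% of the reads at one exon start from an unflagged donor. The competing Snrpn exon starts lie in its long upstream span, had 33 to 59 reads in a column, and share the strand with Snhg14, so their gene is uncertain.

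Of 57 other genes of the imprinted regions, 55 had a row and 53 were tested; 9 were higher in replicate 1 and 15 were lower, with a median log2 ratio of -0.08, where 14.0% of all genes were higher and 14.8% lower; the edgeR test called 1. The most abundant were Cd81, a tetraspanin gene, at 348 TPM in replicate 1 and 322 TPM in replicate 2, Snhg14, and Nap1l5, a paternally read nucleosome assembly gene, at 200.4 TPM in replicate 1 and 160 TPM in replicate 2. Begain, Herc3, Rasgrf1, Nap1l4, Bcl2l1, Blcap and Adam23 followed, with means between 44.0 and 83.9 TPM. Blcap, which hosts Nnat in an intron, was called at a ratio of 0.955 (0.920 to 0.990), much nearer to 1 than Nnat.

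Of these genes 3 were called with at least a 1.5-fold difference, which 4.38% of all genes tested were. Dio3, the thyroid hormone deiodinase gene at the far end of the Dlk1 cluster, had 28 counts in replicate 1 against 78 in replicate 2 (ratio 0.352, interval 0.220 to 0.548) and was the only one also called by edgeR (adjusted p = 0.00412). Slc22a3, a cation transporter gene beside Igf2r, had a ratio of 0.613 (0.481 to 0.778). Gabra5, a GABA-A receptor subunit gene in the Angelman cluster that is strong in hippocampus, had 4429 counts in replicate 1 against 2810 in replicate 2 (ratio 1.55, interval 1.47 to 1.62; edgeR adjusted p = 0.0620). The 6 hippocampal markers were all higher in replicate 1, and their part in the Gabra5 ratio was not tested.

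Genes that keep imprints were present. Trim28, the corepressor that ZFP57 recruits, had 123 TPM in replicate 1 and 109 TPM in replicate 2. Zfp57, best known from embryonic cells, had 16.02 TPM in replicate 1 and 12.4 TPM in replicate 2, and Zfp445 had 28.5 TPM in replicate 1 and 22.1 TPM in replicate 2. Of the 14 genes 13 were tested; 5 were higher in replicate 1, where 14.0% of all genes were, and 1 was lower, where 14.8% were; edgeR called none of them. The lower one was Uhrf1, at a ratio of 0.593 (0.468 to 0.749; edgeR adjusted p = 0.147). Dppa3, a gene of oocytes and early embryos, had 0 counts in both libraries.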

How the data were processed

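Per the file headers, the deposited gene and transcript tables on mm10 (GENCODE M4) give expected counts, TPM and FPKM per library, with isoform shares in percent; the authors' program is not given in the sources used here. The deposited mm9 tables (Ensembl 65) give RPKM of genes and exons, counts of junction reads and a contig signal level, in columns not assigned to replicates. Deposited expected counts were rounded to whole numbers. Replicate 1 was compared with replicate 2 by an exact two-sided binomial test on genes with at least 10 counts, scaled by TMM (edgeR 4.0.16 in R 4.3.3) (adjusted p under 0.05 by the Benjamini-Hochberg method); 0.5 counts were added for log2 ratios. Intervals of ratios are 95% Clopper-Pearson and those of junction shares 95% Wilson; they and the limits for a count of 0 hold for counting error alone, because no molecular identifiers mark single molecules. Nothing says that the replicates came from separate litters, so p-values may measure technical spread. DESeq2 1.42.0 gave alternative size factors. The test was tried on simulated counts with counting error alone, which cannot show how it behaves under further variation between libraries. Symbols, positions and transcript sequences are from GENCODE M21 (GRCm38), promoters and microRNAs from RefSeq (GRCm38.p6); mm9 and mm10 positions were not mixed. Of the 31 genes, 24 had a RefSeq promoter window in the table, Snrpn and Snurf the same one. Further steps used Python 3.11.15, pandas 2.3.3 and scipy 1.17.1. The genes, the lists and the tests were chosen with earlier results of these data known. All members are named; other imprinted genes by the 10 highest mean TPM and by called ratios of at least 1.5-fold; isoforms by a leading share under 60%, plus fixed genes; exon starts by 20 reads and a further donor at 10%.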

Additional observations from a re-analysis of the deposited data

How the results depend on the processing

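No paired analysis was possible because the series has 1 group. The number of members called, 14, was 13 with DESeq2 size factors, 12 with plain totals, 14 with a minimum of 1 or of 50 counts, 8 with Bonferroni adjustment, 22 with spike-in totals (21 of them higher in replicate 1) and 0 with the edgeR exact test. Spike-in scaling moved the median log2 ratio of all genes to 0.30, and the value of a member relative to that shift is the one to read. The other imprinted genes gave 24 calls among 53 tested, 22 with plain totals and 1 with edgeR. Of all genes 28.7% were called at the main setting and with DESeq2 size factors, and 31.2% with plain totals. That share was 10.2% with Bonferroni adjustment, 69.0% with spike-in totals and 1.31% with edgeR, and is not given for the other minimum counts.

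The members' median log2 ratio of -0.021 was 0.013 with plain totals, 0.28 with spike-in totals, 0.16 as a ratio of TPM, -0.014 with DESeq2 size factors, -0.023 with a minimum of 1 count and -0.019 with 50; over all genes it was 0.031 with plain totals and 0.16 as a ratio of TPM. The log2 ratios of Ndn, Copg2, Peg10 and Trappc9 turned positive with plain totals, at 0.0082, 0.017, 0.013 and 0.0076. With spike-in totals those of Dlk1 (0.035), Snrpn (0.25), Ndn (0.28), Mkrn3 (0.084), Igf2 (0.084), Igf2r (0.26), Plagl1 (0.18), Mest (0.083), Copg2 (0.29), Sgce (0.21), Peg10 (0.28), Zdbf2 (0.25), Inpp5f (0.24) and Trappc9 (0.28) turned positive, each still below the shift of all genes; the ratio of Nnat stayed negative.

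The median rank of 74.3% by TPM was 75.8% by mm9 RPKM. With 1 library only, summed TPM ran from 5098 to 5835, the median log2(TPM + 1) from 3.85 to 4.15, the number of members at 1 TPM was 23 either way, and the genes with a leading transcript under 60% from 7 to 9. Exon starts with a further donor numbered 19, 13 with a minimum of 50 reads and 24 with a donor share of 5%. Of 39 alternatives to these summaries 28 stayed within 1.5 times the count or within 1 SD of the value. A further 8 did not, and 3 changed sign. No SD was set for the members' median log2 ratio, so each of its alternatives counted as moved or as a change of sign. Summaries with an SD lie within it by construction when 1 library is left out. Of 68 alternatives to single pair ratios 24 moved by more than the SD between libraries and 0 changed sign. Those that leave out 1 library lie within that SD by construction, so they could not count as moved. Low members such as Phlda2, Nespas, H19 and Dlk1 are limited by depth, and transcripts of one gene share reads.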
